A study of Homo sapiens with 8 samples.

Results

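The genes examined were 35 KRAB zinc finger genes of the cluster around 19p12, on the short arm of chromosome 19, given by symbol. For each symbol the transcript cluster (the array's unit for 1 gene's probes) that was brightest on average across the 8 arrays was used. Of the 35 genes, 33 had a transcript cluster of their own among the 18417 genes tested. ZNF98 and ZNF728 appeared on this array in clusters that list several genes, and were not measured here. The cells were ZR-75-1, an established human line from a luminal breast cancer that has the estrogen receptor, and the study asked what loss of EI24 does to their epithelial state. Total RNA came from parental cells with no treatment (called parental here), from cells that carry an shRNA to GFP as the control (shGFP), and from shEI24 cells, which carry an shRNA to EI24, as clone 1 and clone 2, with 2 arrays for each of these 4 lines. All lines were grown in the same medium without any chemical. The shEI24 lines are stable knockdown lines given by the submitters as independent clones, and of the numbers in a label the first was read as the clone.

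KRAB zinc finger proteins bind DNA through a tandem row of zinc fingers and carry a KRAB domain, which recruits the corepressor TRIM28. TRIM28 brings the histone methyltransferase SETDB1 and heterochromatin proteins, so that the bound DNA is packed into silent chromatin. Many of these proteins silence transposable elements, and the 19p12 cluster grew by gene duplication in primates. The genes are therefore paralogs with similar sequences, and probes of one can take up signal of another. By the RefSeq annotation of GRCh38.p14 all 35 lie on chromosome 19, where ZNF101 comes first and ZNF254 last.

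The members were selected on their log2 values across the 4 lines on these arrays, so their differences between lines are given as descriptions with their errors. EI24 itself checked the labels: its log2 intensity was 11.97 and 11.91 in shGFP and 12.08 and 12.09 in parental cells, against 8.64 and 8.43 in clone 1 and 9.25 and 9.19 in clone 2, without overlap. The deposited values are log2 intensities from RMA, and the array medians lay between 7.28 and 7.39. Each array correlated better with the other array of its line (r from 0.994 to 0.998 across genes) than with any array of another line (at most 0.990). Luminal markers were lower in shEI24 cells than in shGFP cells for 10 of 10 genes by limma, where 29.0% of all genes were lower and 26.8% higher, with a mean level per array of 8.40 to 8.64 in the clones and 11.70 to 11.87 in controls. Among mesenchymal markers, 4 of 10 were higher and none lower, a share not far from that of all genes, with 7.93 to 8.02 in the clones against 6.29 to 6.39. In log2 units against shGFP, VIM rose by 6.20, FN1 by 5.05, ZEB1 by 4.51 and CDH2 by 0.33. The others did not pass, and of these LUM and DCN lay at percentiles 0.608 and 2.19 of all genes. Of the 4 blood cell markers measured, CD14 and PTPRC were higher in the clones, where 26.8% of all genes were. The list's mean level was 6.04 to 6.25 in the clones and 5.64 to 5.86 in controls. PTPRC lay at percentile 1.98 of all genes, with a log2 difference of 0.21, where the size is uncertain. The part of these shifts in the results on the zinc finger genes was not tested. In bulk RNA, fewer cells of a type and less RNA per cell cannot be told apart. Whether the arrays of each line go back to separate cultures is not given in the sources used here, so the errors cover the spread between arrays alone and that may be technical.

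Most start regions of the members were alike. RefSeq promoter windows (GRCh38.p14, 250 bases before to 50 after a transcript start, the first window listed for each gene) were found for 27 of the 35 genes, all of them measured. Over the 351 pairs of these windows the median identity was 79.0%, with a range of 57.7% to 91.0%. Among 69 neighboring genes on the same chromosome that are not zinc finger genes, the median pair had 59.0% and the highest 66.3%. Members' pairs with ZNF101 reached at most 63.3% and those with ZNF14 at most 64.7%, both below the highest pair of neighbors. Of the words of 8 letters, CCAATCAG was held by the most members' windows, level with TCCAATCA, which overlaps it. It holds the CCAAT box known as a binding site of the factor NF-Y. It stood in 27 of 27 windows, against 4.16% of the windows of all 27305 genes, both strands searched. The commonest word of 10 letters, TCCAATCAGG, overlaps it and stood in 25 of 27 (0.388% of all). The commonest word of 12 letters, CTGTCACTCAGG, stood in 18 of 27 (0.136% of all). These words were chosen for being common in the members, so their high share is how they were found. The windows printed are those of the 3 members with the largest difference between shEI24 and shGFP (ZNF730, ZNF429, ZNF726) and of a lower member without the longest word (ZNF43), followed by 2 members that did not pass the test in that comparison (ZNF486, ZNF90). Capitals mark the words, 5′ to 3′ in the direction of transcription.
ZNF730, chr19:23116775-23117074, plus strand: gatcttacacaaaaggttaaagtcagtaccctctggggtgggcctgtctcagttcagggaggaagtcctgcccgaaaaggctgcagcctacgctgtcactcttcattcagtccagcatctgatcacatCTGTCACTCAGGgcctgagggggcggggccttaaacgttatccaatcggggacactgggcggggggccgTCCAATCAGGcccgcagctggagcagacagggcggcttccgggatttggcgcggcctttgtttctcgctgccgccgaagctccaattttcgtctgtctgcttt
ZNF429, chr19:21505352-21505651, plus strand: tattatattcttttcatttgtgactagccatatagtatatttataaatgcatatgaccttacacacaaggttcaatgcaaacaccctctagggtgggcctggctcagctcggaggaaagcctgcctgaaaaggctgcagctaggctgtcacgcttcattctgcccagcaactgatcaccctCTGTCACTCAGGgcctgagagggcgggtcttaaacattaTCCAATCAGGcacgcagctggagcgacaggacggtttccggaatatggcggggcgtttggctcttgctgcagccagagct
ZNF726, chr19:23914636-23914935, plus strand: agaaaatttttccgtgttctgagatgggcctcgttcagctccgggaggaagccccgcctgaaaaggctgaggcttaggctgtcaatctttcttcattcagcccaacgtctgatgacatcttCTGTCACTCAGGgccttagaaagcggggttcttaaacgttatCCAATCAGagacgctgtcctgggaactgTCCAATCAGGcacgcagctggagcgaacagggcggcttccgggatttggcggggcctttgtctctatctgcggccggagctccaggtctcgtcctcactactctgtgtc
ZNF43, chr19:21836133-21836432, minus strand: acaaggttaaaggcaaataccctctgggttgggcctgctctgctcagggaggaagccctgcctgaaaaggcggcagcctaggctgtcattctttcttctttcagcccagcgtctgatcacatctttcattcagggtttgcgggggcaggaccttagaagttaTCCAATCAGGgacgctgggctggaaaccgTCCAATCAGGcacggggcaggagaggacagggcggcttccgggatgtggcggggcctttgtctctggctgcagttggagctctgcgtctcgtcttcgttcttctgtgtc
ZNF486, chr19:20166964-20167263, plus strand: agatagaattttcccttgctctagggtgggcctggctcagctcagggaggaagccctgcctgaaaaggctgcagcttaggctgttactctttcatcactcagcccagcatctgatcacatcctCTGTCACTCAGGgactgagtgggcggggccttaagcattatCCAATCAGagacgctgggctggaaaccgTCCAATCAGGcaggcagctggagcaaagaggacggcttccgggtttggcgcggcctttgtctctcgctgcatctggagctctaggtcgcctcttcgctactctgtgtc
ZNF90, chr19:20077750-20078049, plus strand: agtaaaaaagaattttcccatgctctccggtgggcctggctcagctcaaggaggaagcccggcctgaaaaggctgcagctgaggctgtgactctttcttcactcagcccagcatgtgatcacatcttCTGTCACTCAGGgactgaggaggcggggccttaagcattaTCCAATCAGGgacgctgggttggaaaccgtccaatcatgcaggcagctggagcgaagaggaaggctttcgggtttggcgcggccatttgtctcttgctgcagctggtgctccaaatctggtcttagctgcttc
The word nearest to the start lay a median of 56 bases before it for CCAATCAG and 125.5 bases before it for CTGTCACTCAGG. ZNF486 and ZNF90, which did not pass the test between shEI24 and shGFP, hold all 3 words, as do ZNF730, ZNF429 and ZNF726.

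Most of the zinc finger genes had less mRNA in shEI24 cells than in shGFP cells. Of the 33 measured, 27 were lower at an adjusted p under 0.05 from limma, 2 were higher and 4 did not pass. Over all 18417 genes tested, 29.0% were lower and 26.8% higher, and since the set was proposed with this contrast in view nothing is read from the excess. The median log2 difference of the members was -1.37, from -3.63 for ZNF730 to 1.81 for ZNF506, and the median of all genes was 0.08. The difference was below 0 in 29 members (42.4% of all genes). At least 2-fold lower were 21 of the 33, against 9.08% of all genes, and at least 2-fold higher 2, against 8.69%. In 24 members all 4 shEI24 arrays lay below all 4 control arrays (26.9% of all genes), in 3 (ZNF506, ZNF676 and ZNF90) all lay above (23.8% of all genes), and in 6 the arrays overlapped. In shGFP cells the median member had a log2 level of 9.73, at percentile 79.7 of all genes, as against 9.18 in parental cells, 8.20 in clone 1 and 8.03 in clone 2 (percentiles 70.0, 55.1 and 52.1).

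The largest differences were those of ZNF730, ZNF429, ZNF726 and ZNF253. ZNF730 had log2 values of 11.14 and 11.06 in shGFP and 10.66 and 10.73 in parental cells, against 7.70 and 7.78 in clone 1 and 7.39 and 7.03 in clone 2. Its shEI24 arrays lay far below its control arrays, with a log2 difference from shGFP of -3.63 (standard error 0.11) or 12.3-fold. ZNF429 read 9.92 and 9.93 in shGFP and 9.03 and 9.06 in parental cells, against 6.72 and 5.79 in clone 1 and 6.75 and 6.27 in clone 2. The difference was -3.54 (standard error 0.23), and the spread between its shEI24 arrays was wider than that between its control arrays. ZNF726 read 8.26 and 8.29 in shGFP and 7.55 and 7.50 in parental cells, against 5.28 and 4.98 in clone 1 and 4.79 and 4.89 in clone 2. Its clone means lay at percentiles 6.95 and 4.59 of all genes, where array values compress differences, and its difference was -3.29 (standard error 0.10). ZNF253 read 10.56 and 10.63 in shGFP and 9.81 and 9.96 in parental cells, against 7.66 and 7.22 in clone 1 and 7.88 and 7.31 in clone 2. Its difference was -3.08 (standard error 0.17), with no overlap of shEI24 and control arrays.

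Next came 4 genes with 4.24 to 5.07-fold lower levels. ZNF681 read 9.20 and 9.15 in shGFP and 8.97 and 8.86 in parental cells, against 7.39 and 6.74 in clone 1 and 6.74 and 6.46 in clone 2, a difference from shGFP of -2.34 (standard error 0.16). ZNF682 read 9.25 and 9.12 in shGFP and 8.88 and 8.76 in parental cells, against 7.16 and 6.55 in clone 1 and 7.06 and 6.70 in clone 2, a difference of -2.31 (standard error 0.17). In both genes the lowest control array stood well above the highest shEI24 array. ZNF43 read 9.94 and 9.92 in shGFP and 9.34 and 9.46 in parental cells, against 7.85 and 7.40 in clone 1 and 7.87 and 7.49 in clone 2, a difference of -2.27 (standard error 0.14). ZNF93, whose protein is known to silence L1 retrotransposons, read 10.18 and 10.04 in shGFP and 9.35 and 9.21 in parental cells, against 8.59 and 8.22 in clone 1 and 7.75 and 7.54 in clone 2. Its difference from shGFP was -2.08 (standard error 0.12), while clone 1 and parental cells were closer to each other than in the genes before it.

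A further 7 members with full array values were 2.80 to 3.62-fold lower. ZNF724 read 10.995 and 11.034 in shGFP and 10.64 and 10.61 in parental cells, against 9.84 and 9.43 in clone 1 and 8.94 and 8.43 in clone 2. ZNF85 read 10.12 and 9.97 in shGFP and 9.58 and 9.41 in parental cells, against 8.42 and 8.34 in clone 1 and 8.05 and 8.00 in clone 2. Their differences from shGFP were -1.86 and -1.84 (standard errors 0.15 and 0.09), and in both genes clone 2 lay below clone 1. ZNF714 read 9.83 and 9.75 in shGFP and 9.38 and 9.61 in parental cells, against 8.25 and 8.15 in clone 1 and 8.23 and 7.85 in clone 2. ZNF738 read 9.89 and 9.81 in shGFP and 9.09 and 9.05 in parental cells, against 8.63 and 8.37 in clone 1 and 8.08 and 7.98 in clone 2. ZNF714 differed from shGFP by -1.67 (standard error 0.12) and ZNF738 by -1.59 (standard error 0.09), and the parental arrays of ZNF738 were nearer to clone 1 than to shGFP. ZNF14 read 8.35 and 8.41 in shGFP and 7.90 and 7.77 in parental cells, against 6.78 and 6.41 in clone 1 and 7.34 and 6.93 in clone 2. ZNF100 read 9.69 and 9.77 in shGFP and 9.41 and 9.46 in parental cells, against 8.46 and 8.28 in clone 1 and 8.23 and 7.93 in clone 2. Each of these 2 genes had a difference of -1.51 (standard errors 0.14 and 0.10), without overlap. ZNF492 read 8.69 and 8.68 in shGFP and 8.07 and 8.09 in parental cells, against 7.71 and 7.48 in clone 1 and 7.05 and 6.55 in clone 2, a difference of -1.49 (standard error 0.13). With each line counted as 1 replicate and shGFP pooled with parental cells, ZNF492 did not pass, at a log2 difference of -1.18.

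The other 17 members ranged from -1.50 to 1.29 in their log2 difference from shGFP, and 12 of them were lower and 1 higher by limma. ZNF91, which encodes a repressor of SVA retrotransposons, read 10.26 and 10.32 in shGFP and 9.87 and 9.86 in parental cells, against 9.28 and 8.92 in clone 1 and 9.23 and 8.83 in clone 2. ZNF675, whose protein is known as an inhibitor of TRAF6 in NF-κB signaling, read 8.49 and 7.90 in clone 1, 8.53 and 8.31 in clone 2, 9.62 and 9.59 in shGFP, and 9.01 in the mean of the parental arrays. ZNF91 differed from shGFP by -1.22 (standard error 0.13) and ZNF675 by -1.29 (standard error 0.15), both without overlap of shEI24 and control arrays. These 2 genes are given for their known roles and were picked outside the rule for named genes. ZNF708 differed by -1.50, ZNF254 by -1.37, ZNF737 by -1.25 and ZNF431 by -1.21. Smaller differences that passed were those of ZNF493 with -0.85, ZNF430 with -0.78, ZNF626 with -0.70, ZNF257 with -0.62, ZNF208 with -0.53 and ZNF101 with -0.40. By the clusters used, the brightest member was ZNF257, at 12.17 in shGFP and 11.53 and 11.57 in the clones. Its other cluster read 5.08 in shGFP, so this rank holds for the chosen cluster alone.

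ZNF506 and ZNF676 had more mRNA in shEI24 cells than in controls. ZNF506, near the end of the cluster where ZNF101 lies, read 6.83 and 6.67 in shGFP and 6.27 and 6.44 in parental cells, against 8.57 and 7.96 in clone 1 and 9.01 and 8.70 in clone 2, a difference from shGFP of 1.81 (standard error 0.17) or 3.50-fold. Its neighbors in chromosome order, ZNF14 before it and ZNF253 after it, were both lower. ZNF676 was dim, with control means at percentiles 5.85 and 7.49 of all genes, where array values compress differences and the size is uncertain. It read 4.72 and 5.06 in shGFP and 5.20 and 5.00 in parental cells, against 6.04 and 5.93 in clone 1 and 6.55 and 6.20 in clone 2, a difference of 1.29 (standard error 0.13). The 4 members that did not pass were ZNF90 (0.14, standard error 0.09), ZNF486 (-0.18, standard error 0.12), ZNF729 (-0.21, standard error 0.10) and ZNF99 (0.02, standard error 0.07). ZNF90 and ZNF486, which follow each other on the chromosome, had levels of 8.71 and 10.30 in shGFP. ZNF729 and ZNF99 lay between percentiles 2.28 and 7.50 of all genes in the 4 lines, where a difference may not be detectable.

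Where a gene had more than 1 transcript cluster, these did not always move together. The dimmer cluster of ZNF626 read 9.11 in each clone, 7.47 in shGFP and 6.93 in parental cells, a log2 difference of 1.63, while the brighter one gave -0.70. For ZNF257 the dimmer cluster gave 0.06 at a level near 5.08, against -0.62 for the brighter one. The clusters of ZNF493 gave -0.85 and -1.22, and those of ZNF208 gave -0.53, -0.50 and -0.38. The last of these read 4.05 in shGFP, near the bottom of the array, where a difference may not be detectable. The cluster that lists ZNF98 with ZNF492 and ZNF85 gave -0.78, and the one that lists ZNF728 with 7 other members gave -0.33 at a level of 13.17 in shGFP. The probes' sequences were not used here, and how much signal the paralogs share was not tested.

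The members were selected on values that include both clones, so the counts for each clone are descriptions and not separate support. Against shGFP, 28 members were lower and 2 higher in clone 1, where 26.6% of all genes were lower and 23.0% higher. In clone 2, 27 were lower and 2 higher, where 27.8% of all genes were lower and 25.2% higher. These comparisons share the shGFP arrays, as does that of shGFP with parental cells. The medians were -1.36 and -1.24. Between the clones 6 members differed by limma, all of them higher in clone 1: ZNF724 by 0.95, ZNF492 by 0.80, ZNF93 by 0.76, ZNF730 by 0.53, ZNF738 by 0.47 and ZNF85 by 0.35. Over all genes 9.29% were higher in clone 1 and 5.88% lower. None of the members was lower in clone 1 after adjustment by limma or by the methods' t-test, while at an unadjusted limma p under 0.05 there were 8 lower and 10 higher. That t-test had few degrees of freedom, so its lack of calls says little. With the replicate number as a block 6 were higher and 6 lower in clone 1, so that the difference did not run one way. The counts also depended on single arrays: 2 members were higher and 7 lower without clone 1 replicate 1, and 3 higher and 2 lower without clone 2 replicate 2. Without parental replicate 1 or without parental replicate 2, which only enter the estimate of the spread, 1 was lower.

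The control lines also differed. In shGFP 30 of 33 members had a higher mean than in parental cells (43.9% of all genes did), with a median log2 difference of 0.42 against -0.03 over all genes. Of these, 10 members passed by limma and none was lower, where 3.21% of all genes were higher and 7.44% lower. At an unadjusted limma p under 0.05 there were 23 higher and 0 lower, and none was lower after adjustment by the methods' t-test, which also called 0 higher. With 2 arrays in each line that t-test had few degrees of freedom, so its lack of calls says little. ZNF429 had the largest difference, 0.88 (standard error 0.26, not passing), followed by ZNF93 with 0.83, ZNF738 with 0.78, ZNF486 with 0.77 and ZNF726 with 0.75, which passed. The standard errors pool the spread of all 4 lines. For ZNF429 the standard deviation (SD) over 2 arrays was 0.66 in clone 1 and 0.34 in clone 2. It was 0.0025 in shGFP and 0.028 in parental cells. The members' median SD was 0.25 and 0.21 in the clones, 0.048 in shGFP and 0.079 in parental cells. With the arrays of the 2 control lines alone, 24 were higher. With the replicate number as a block 17 were higher. The count of 10 rested on few arrays: 2 passed without shGFP replicate 1 and 2 without shGFP replicate 2, 4 without parental replicate 1 and 5 without parental replicate 2, 16 without clone 1 replicate 1 and 16 without clone 1 replicate 2. Since shGFP lay above parental cells, the choice of control changed the size of the difference from shEI24. Against parental cells 24 members were lower (30.8% of all genes) and 4 higher (25.1% of all genes), with a median of -0.87. The 4 were ZNF506 and ZNF676, with log2 differences of 2.21 and 1.08, and ZNF90 and ZNF486, with 0.68 and 0.59.

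**Figure D1:**
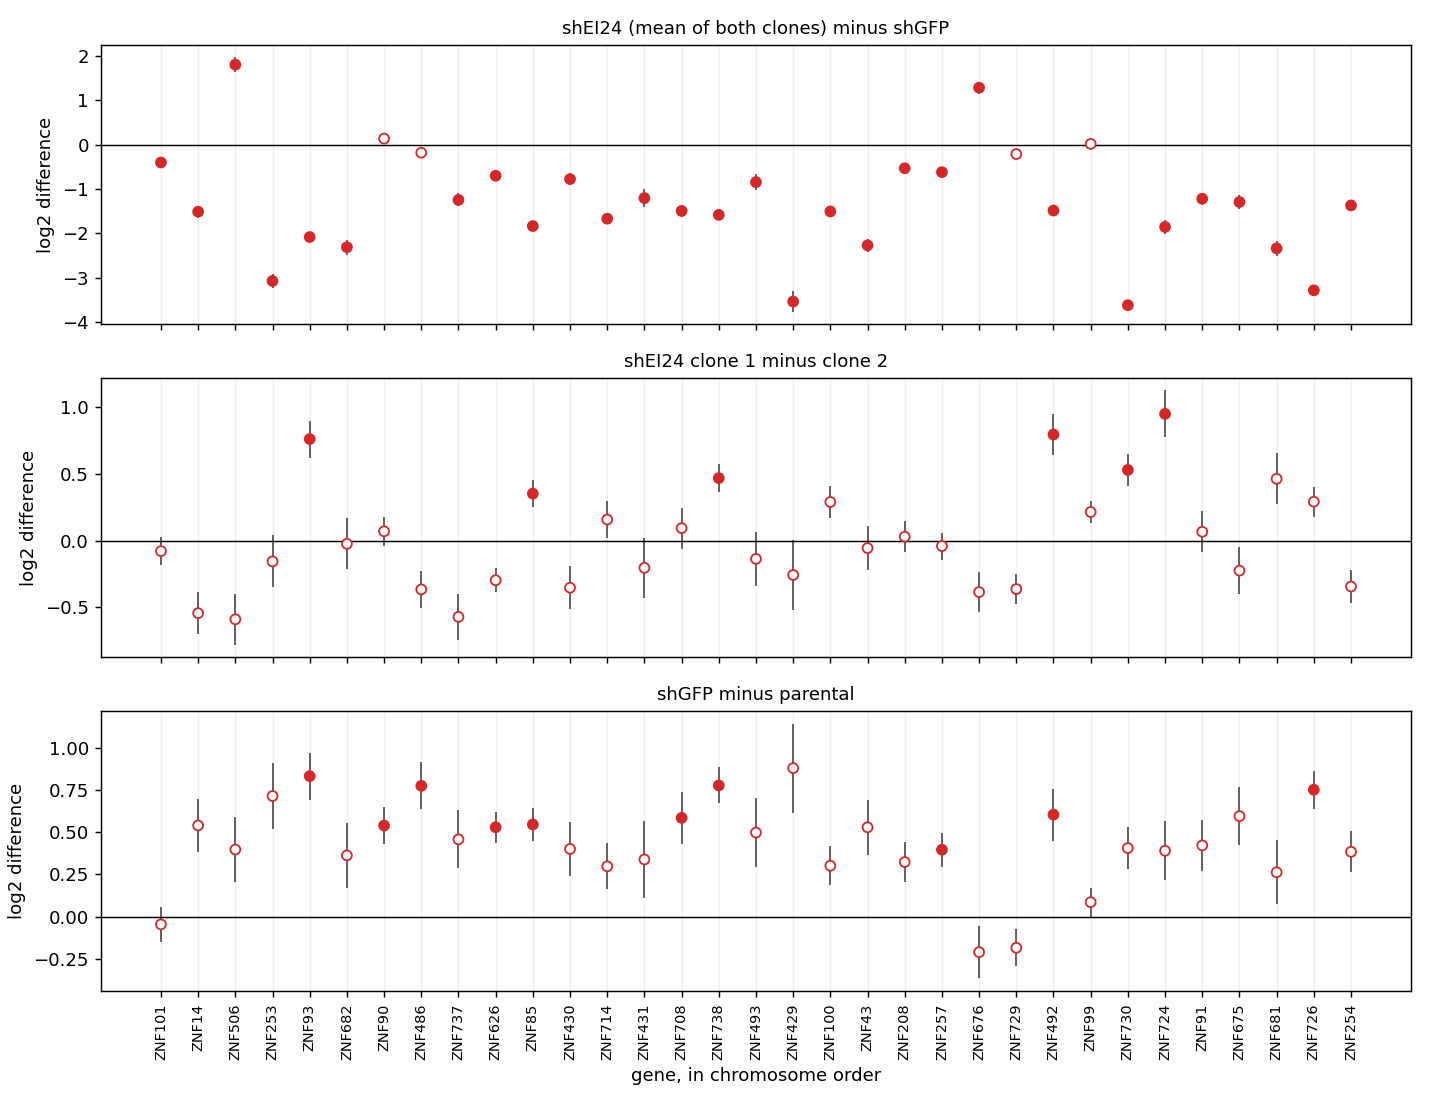
Log2 difference of each member (vertical axes) in chromosome order for shEI24 minus shGFP, clone 1 minus clone 2, and shGFP minus parental cells; bars are standard errors from limma, and filled points passed an adjusted p of 0.05. The top panel holds 27 filled points below 0 and 2 above, the middle panel 6 above 0 and none below, and the bottom panel has 30 points above 0, of which 10 are filled.

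The members also differed between the arrays of 1 clone. In clone 1, 29 of 33 members were higher in replicate 1 than in replicate 2, by a median of 0.35, where 48.1% of all genes were higher. In clone 2 it was again 29 of 33, by a median of 0.30, where 52.0% of all genes were. This was not particular to the members. The relatives on chromosomes 7, 4 and 11, described below, had medians of 0.42 in clone 1 and 0.23 in clone 2. Other ZNF genes on chromosome 19 had 0.14 in each clone, and those on other chromosomes 0.06 and 0.08. In shGFP cells 19 members were higher in replicate 1 (53.8% of all genes) and in parental cells 14 (54.1% of all genes), with medians of 0.02 and -0.04. Leaving out any single array left 26 or 27 members lower than in shGFP.

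Zinc finger genes outside 19p12 did not all follow. The relatives of these genes on chromosomes 7, 4 and 11, a list of 18 of which 13 were measured, were lower in shEI24 than in shGFP for 10 genes and higher for 2, with a median log2 difference of -1.96. Over all genes 29.0% were lower and 26.8% higher, with a median of 0.08, and the counts of each group of genes here stand beside those shares. ZNF117 read 9.68 and 9.57 in shGFP and 8.72 and 8.58 in parental cells, against 6.16 and 5.84 in clone 1 and 5.69 and 5.65 in clone 2, a difference of -3.78 (standard error 0.10, adjusted p = 8.6e-09 from limma). ZNF138 had -2.85, ZNF732 -2.83 and ZNF107 -2.43, and all 4 lay below their control arrays in every shEI24 array. ZNF716 and ZNF679 rose, by 1.66 and 0.95. Between the control lines, 3 of the 13 relatives were higher in shGFP than in parental cells and none lower. Over all genes 3.21% were higher and 7.44% lower there. The relatives' median difference was 0.44, near the 0.42 of the members. The 188 other genes with a ZNF symbol on chromosome 19 had a median of -0.09, with 68 lower and 44 higher (36.2% and 23.4%, near the shares of all genes). The 205 on other chromosomes had a median of -0.36, with 113 lower and 25 higher. These are 55.1% and 12.2%, so more of them were lower and fewer higher than among all genes. Neighbors on chromosome 19 that lie within 3 Mb before the first member and are not zinc finger genes had a median of 0.21, with 17 of 83 lower and 34 higher. No gene tested lay within 3 Mb after the last member. Of the 4 unlisted genes tested that lie between members, RPSA2 fell by 1.93 and the pseudogene ZNF826P rose by 1.88 (adjusted p = 6.5e-07 and 9.3e-05 from limma). RPSA2, next to ZNF681, had means of 8.61 in shGFP and 7.75 in parental cells, against 6.93 in clone 1 and 6.43 in clone 2.

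Other genes with the words found in the members' start regions moved in both directions, and for each word more were lower than higher. Over all genes 29.0% were lower and 26.8% higher. Whether the words play a part was not tested. Outside the set, 12 genes tested hold CTGTCACTCAGG, of which 6 were lower, 4 higher and 2 did not pass by limma. Among them ZNF138, ZNF107, ZNF680 and ZNF195, relatives on chromosomes 7 and 11, were lower, while ZNF844 and ZNF625-ZNF20, on chromosome 19, rose by 1.99 and 2.93. TCCAATCAGG was found for 47 tested genes outside the set, with 24 lower, 13 higher and a median of -0.22. For CCAATCAG it was 712 genes, with 274 lower, 166 higher and a median of -0.02. Within the set, the 18 members with CTGTCACTCAGG had a median of -1.27 and the 9 without it -1.51. The number of CG pairs in the window had a median of 10 in members and 14 over all genes, and its Spearman correlation with the log2 difference over the 27 members was -0.03.

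Genes of a list that joins KRAB corepressors with heterochromatin machinery were mostly lower in shEI24 cells than in shGFP cells. Of 26 such genes 20 fell, 1 rose and 5 did not pass, where 29.0% of all genes were lower and 26.8% higher. Their median log2 difference was -0.52, against 0.08 over all genes. CBX5, which encodes a heterochromatin protein that binds methylated histone H3, read 12.53 and 12.58 in shGFP and 12.61 and 12.64 in parental cells, against 11.12 and 11.03 in clone 1 and 9.69 and 9.65 in clone 2. It fell by 2.18 (standard error 0.07; limma, adjusted p = 2.7e-08), while clone 2 lay below clone 1 by 1.41. SETDB1, the methyltransferase recruited by TRIM28, read 10.46 and 10.42 in shGFP and 10.29 and 10.16 in parental cells, against 8.62 and 8.36 in clone 1 and 8.61 and 8.45 in clone 2. It fell by 1.93 (standard error 0.10, adjusted p = 3.4e-07 from limma). CHD3, a subunit of the NuRD complex, and SUV39H2, another histone methyltransferase, had differences of -1.15 and -1.14, both lower by limma. TRIM28, the corepressor itself, read 11.15 and 11.13 in shGFP and 12.17 and 12.09 in parental cells, against 10.66 and 10.74 in clone 1 and 10.47 and 10.50 in clone 2. Against shGFP it fell by 0.55 (standard error 0.07; limma, adjusted p = 0.00018), and its difference between shGFP and parental cells was -0.99 (limma, adjusted p = 0.00041). Unlike most of the zinc finger genes, TRIM28 was thus highest in parental cells. MORC3, a nuclear ATPase, rose by 0.88, and its difference of clone 1 from clone 2 was -1.01.

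**Figure D2:**
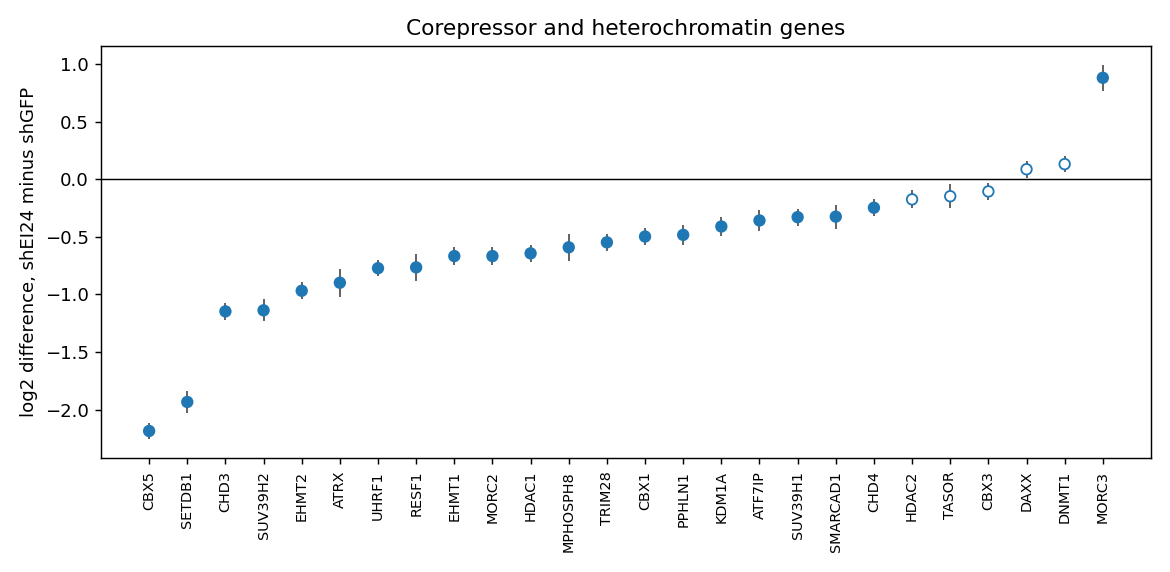
Log2 difference of shEI24 minus shGFP (vertical axis) for 26 corepressor and heterochromatin genes, in order of the difference; bars are standard errors from limma, and filled points passed an adjusted p of 0.05. CBX5 at -2.18 and SETDB1 at -1.93 lie lowest, and MORC3 at 0.88 is the filled point above 0.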

How the data were processed

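RNA of ZR-75-1 cells was hybridized to Affymetrix arrays. The array is a human exon array in the methods, while the identifiers are those of the Human Gene 1.0 ST annotation. The deposited values are log2 intensities that the authors made with RMA (GCOS is named too, with no versions given): background subtraction, quantile normalization and a summary per transcript cluster. Such values do not show a shift in all RNA at once. Of 33297 clusters, 19460 had 1 gene symbol, 1754 several and 12083 none. The brightest cluster per symbol was kept, which left 18417 genes. Each line had its own mean in a limma 3.58.1 fit (R 4.3.3) with 4 residual degrees of freedom, and p-values were adjusted by Benjamini-Hochberg over all genes. On simulated data for shEI24 against shGFP, with 200 changed genes of 18417, 90.4% of log2 changes of -1 and 45.6% of those of -0.5 were recovered, and 4.32% of calls were false. The simulated noise was independent between arrays and had 1 SD per gene in all lines. In the data 29.0% of all genes were lower and 26.8% higher, so the simulated rates need not hold there. Precision is limited by the number of arrays. Members and lists were chosen with earlier results of these data known. Array values are given for the 16 members whose line means spanned the most, at least 1 log2 unit. Of each list up to 4 called genes with the largest difference could be named, plus TRIM28 and SETDB1 whatever their values. ZNF676, ZNF91, ZNF675 and RPSA2 were added with their values known. Also named outside this rule were MORC3, LUM, DCN, ZNF716, ZNF679, ZNF680, ZNF195, ZNF826P, ZNF844 and ZNF625-ZNF20. Arrays with the same replicate number deviated together (r from 0.25 to 0.59 across genes, in all 6 pairs of lines), so blocked counts are printed where they differ, though the labels give only a number. Lists held 26 corepressor and heterochromatin genes, 18 relatives, and luminal, mesenchymal and blood cell markers. Alternatives were other controls, a replicate term, other variance models and normalizations, leaving out dim genes, the dimmest cluster, the methods' t-test and leaving out each array. Words of 8, 10 and 12 letters were counted in RefSeq promoter windows with Python 3.11.15, and windows were aligned globally with Biopython 1.88. Protein sequences were not used here.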

Additional observations from a re-analysis of the deposited data

Results flagged for a closer look

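The following differences between the clones stood out because limma's direct comparison of clone 1 with clone 2 passed an adjusted p of 0.05, so that the difference from shGFP was not the same in both. The log2 difference, clone 1 minus clone 2, was 0.35 for ZNF85, 0.47 for ZNF738, 0.53 for ZNF730, 0.76 for ZNF93, 0.80 for ZNF492 and 0.95 for ZNF724. In each of these 6 genes both clones still lay below shGFP. They are descriptions, since the genes were chosen with these arrays known.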

How the results depend on the processing

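Against shGFP, the count of members lower in shEI24 stayed between 21 and 28 under 11 alternatives (27 as reported), 21 with controls pooled and 1 value per line. The count higher was 4 with parental cells as the control and 1 without the dimmest genes (a share of 0.25), and the median log2 difference was -0.87 with parental cells, -1.18 with pooled controls and -1.18 with each line as 1 replicate. Leaving out single arrays gave 26 to 27 lower, 2 higher and medians of -1.45 to -1.30. For the 16 members with array values, 302 of 303 checks kept direction and call, and ZNF492 was the exception. The 16 were picked for the widest spans on these arrays, so their calls were likely to hold and the tally is no measure of robustness. None of them had a second cluster of its own, so the check with the dimmest cluster could not alter their values. Between the clones, the count higher in clone 1 was 3 with the arrays of the clones alone and 0 with the methods' t-test. The count lower was 3 without the dimmest genes, 4 where quantile normalization was repeated and 6 with the variance trend and robust fit. Without single arrays it was 2 to 6 higher and 0 to 7 lower, with the median from -0.18 to 0.16, and it turned positive without clone 1 replicate 2 (0.16) and without clone 2 replicate 1 (0.13). In shGFP against parental cells, the count higher was 24 with those arrays alone, 21 with the variance trend and robust fit, 0 with the methods' t-test and 2 to 16 without single arrays. Both between the clones and between the control lines, the t-test had few degrees of freedom, so its 0 says little. The cause of the shifts in these counts was not tested. Where an array is left out, the lone array of its line is assumed to vary like the other lines.

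With the replicate block (the replicate number as a term), 6 members were lower in clone 1 than in clone 2 and 17 higher in shGFP than in parental cells, and no other count of members changed by over 1.5 times.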
